A study of Mus musculus with 75 samples.

Results

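The Myc locus on mouse chromosome 15 was followed from pro-metaphase to late G1 in a window of 3.5 Mb, chr15:60300000-63800000 in build mm9, with Myc at about 61816000 to 61822000. All peaks of CTCF and of the cohesin subunit Rad21, and all domains, loops and stripes that overlapped the window were taken, stage by stage. They came to 308 features of the 319958 in all lists. The locus had been selected on these same called peaks, domains, loops and stripes and their order of appearance, so the values below describe it and carry no test.

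The cells were G1E-ER4, an erythroid line of mouse strain 129 that derives from the GATA1-null proerythroblast line G1E and carries GATA1 as an inducible fusion protein, used here uninduced. All groups share this background and represent 1 cell line. Cells were arrested with 200 ng/ml nocodazole for 7 to 8.5 h, released and sorted as pro-metaphase (0 min), ana/telophase (25 min), early G1 (60 min), mid G1 (120 min) and late G1 (240 min). Asynchronous cells were added for ChIP-seq only. Of the 75 samples in the series, 13 were CTCF ChIP-seq (3 of pro-metaphase cells, 2 of every other group), 12 were Rad21 ChIP-seq (2 each) and 10 were in situ Hi-C (2 for each stage). The lists give 1 set of features per stage, pooled over replicates for the peaks, and whether Hi-C replicates were pooled is not given in the labels. There was thus no spread between replicates, the read depth behind each list is unknown, and no expression values were used to check the cell type. Over all chromosomes the lists grew from 11604 CTCF peaks in pro-metaphase to 33499 in late G1, from 596 to 18958 Rad21 peaks and from 84 to 11340 loops, so a feature first called late may also have been below the calling threshold earlier.

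Myc encodes a transcription factor that drives cell growth and division. Immediately downstream of it lies the long noncoding RNA gene Pvt1, the next gene in the RefSeq order, and beyond Pvt1 a wide region poor in protein-coding genes holds enhancers that act on Myc in blood cells. CTCF binds DNA at a directional motif and halts cohesin, the ring complex that contains Rad21 and extrudes chromatin loops. CTCF and cohesin together mark the bases of many loops and the borders of domains, and both largely leave chromosomes in mitosis to return as cells re-enter G1.

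CTCF was called at 33 distinct sites in the window, and 8 of them were already called in pro-metaphase. Ana/telophase added 12 sites, early G1 added 9, mid G1 added 3 and late G1 added 1. The lists held 8, 20, 28, 29 and 27 CTCF peaks from pro-metaphase to late G1, and 29 in asynchronous cells. Most of the CTCF sites of the locus were thus listed by early G1, as they were elsewhere. Of the late-G1 CTCF peaks, 88.9% in the window and 91.8% over all chromosomes were found in early G1.

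The CTCF site nearest the start of Myc, chr15:61814731-61815196, lay 0.8 kb upstream of the gene and was called at every stage. The authors' fold enrichment there was 10.6 in pro-metaphase and 40.9 at the next stage. In early, mid and late G1 it was 42.3, 31.6 and 41.0, and asynchronous cells had 45.8. Within its own list the site was stronger than 32% of peaks in pro-metaphase and than 95.2% in late G1. These folds come from the authors' peak caller and are given to describe each list, since pooled and downsampled lists do not give a change between stages. Rad21 was called at the same place, chr15:61814775-61815270, from ana/telophase on. Its fold enrichment was 11.5, 16.2, 17.2 and 21.3 from ana/telophase to late G1, and 15.5 in asynchronous cells.

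Inside Myc, 2 further CTCF sites were first called in early G1 and were called in every later list. The site at 61817003 to 61817257 had fold enrichments of 8.0, 7.8 and 8.6 in the 3 G1 lists, early to late. The site at 61818460 to 61818791 had 9.8, 12.0 and 12.9. Rad21 joined the first of these in early G1 (4.1) and reached the list at the second in mid G1 (9.9), with values of 10.1 and 6.9 in late G1. Both were weak beside the upstream site in each of these lists. Weaker Rad21 peaks were called at the start of the gene, at 61815703 to 61816060 in late G1 only (4.8) and at 61816411 to 61816715 in mid and late G1 (4.0 in each). A CTCF site 9.1 kb upstream, 61806648 to 61806875, was called from early G1 on, with folds between 9.0 and 12.3. Rad21 alone was called at 61737702 to 61737866, 78 kb upstream, in ana/telophase (4.6), and at 61823324 to 61823527, 1.3 kb past the gene, in asynchronous cells (2.9).

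The end of Myc carried a wide CTCF peak in ana/telophase only. It ran from 61820537 to 61822383, 1847 bp, with a fold enrichment of 49.2, and was the widest of the 33127 CTCF peaks in that list, where the median width was 289 bp. In no other CTCF list was there a peak at this place, while 7.55% of the ana/telophase CTCF peaks over all chromosomes were likewise in no other list. Rad21 showed 2 wide peaks over the same stretch in ana/telophase. The first ran from 61820557 to 61821668 (1112 bp, fold 23.1, the widest of 7995), and the second from 61821861 to 61822379 (519 bp, fold 7.69). In early G1 a Rad21 peak of 805 bp remained at 61820633 to 61821437, with a fold of 8.51, the widest of 8694. From mid G1 on neither protein was called there. Leaving these ana/telophase peaks out lowers the peak density in the window from 5.71 to 5.43 per Mb for CTCF and from 3.14 to 2.57 per Mb for Rad21. Without them 6 of 19 ana/telophase CTCF peaks overlapped Rad21, in place of 7 of 20, and 6 of 9 Rad21 peaks overlapped CTCF, in place of 8 of 11. The lists do not show whether the reads behind these wide peaks came from the locus itself, so their folds are given as listed and not as a level of binding, and the cause was not tested.

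**Figure D1:**
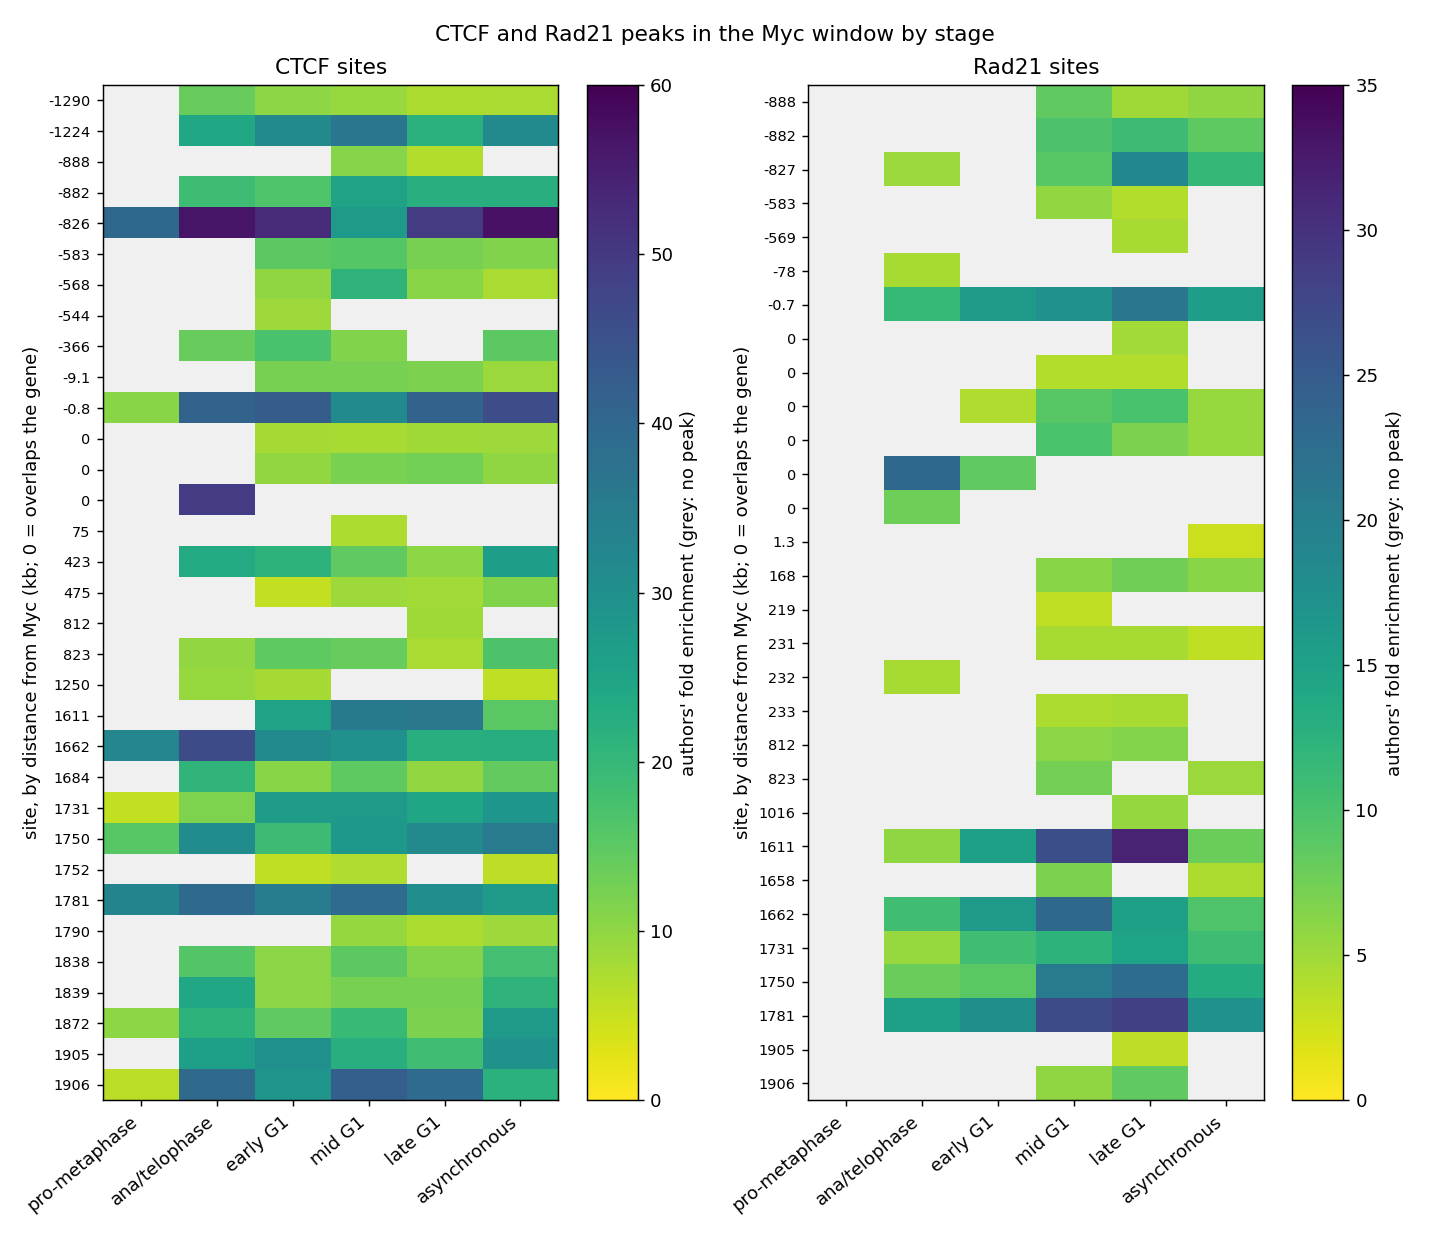
CTCF sites (left) and Rad21 sites (right) of the window, 1 row per site in order along the chromosome and labelled by distance from Myc in kb; columns are stages, colour is the authors' fold enrichment and grey marks no peak. Pro-metaphase shows 8 CTCF sites and no Rad21 site, and the wide ana/telophase CTCF peak at the end of Myc appears as a single dark cell.

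The plot of peaks by stage shows that the sites called in pro-metaphase fell into few places. Of the 8, 1 lay far upstream at 60988901 to 60989638 (fold 40.0), 1 lay just upstream of Myc, and 4 lay in a cluster of sites between 63433171 and 63612235, which begins 1611 kb downstream of Myc. These 4 cluster sites were 63484003 to 63484591 (32.3), 63553292 to 63553667 (5.6), 63572140 to 63572670 (15.6) and 63603104 to 63603826 (33.0). The remaining 2 lay beyond the cluster, at 63693576 to 63693864 (10.3) and 63727534 to 63727884 (6.3). All 8 were called in every later list, asynchronous cells included. Over all chromosomes the pro-metaphase list held 11604 CTCF peaks, and 11304 of the 33499 late-G1 CTCF peaks overlapped that list. The share of pro-metaphase peaks called in every later list was not counted over all chromosomes. Whether this trait is particular to the locus is therefore not shown.

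The distal cluster held 8 CTCF sites, of which 7 were called in late G1. Its first site, 63433171 to 63433525, was not called before early G1, where its fold was 25.3. It had 35.8 and 36.2 in the mid and late G1 lists. The remaining 3 sites of the cluster, 63506038 to 63506324, 63574449 to 63574648 and 63612014 to 63612235, had folds of at most 20.8 in any list. Between Myc and the cluster CTCF was sparse. The longest stretch without a late-G1 CTCF peak in the window, 62644934 to 63433170, measured 788.2 kb, and 458 of 33479 such gaps (1.37%) over all chromosomes were as long. Gaps of 559.2 kb before and 426.5 kb after the CTCF sites at Myc set those sites apart from their neighbours, where the median gap over all chromosomes was 23.4 kb. In late G1 the window held 7.71 CTCF peaks per Mb against 13.0 over all chromosomes, a ratio of 0.592 (95% interval 0.390 to 0.861).

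The far upstream zone held 9 CTCF sites, 7 of them called in late G1. Its strongest, the pro-metaphase site at 60988901 named above, had a late-G1 fold of 49.5, the highest of any CTCF peak of the window in that stage. The others called in late G1 were 60525316 to 60525602 (7.3), 60591341 to 60591890 (21.6), 60928079 to 60928304 (7.0), 60933989 to 60934280 (22.2), 61232342 to 61232601 (12.4) and 61247250 to 61247510 (10.6). The site at 61450190 to 61450479 was called from ana/telophase to mid G1 and in asynchronous cells (15.0) but not in late G1. Between 100 kb past Myc and the cluster, 5 CTCF sites were listed and 4 were called in late G1, with folds of 7.6 to 10.1. The site at 62634478 to 62634657 was called in late G1 only (8.7) and lies in loop and stripe anchors of that stage. The site at 62644742 to 62644990, called from ana/telophase on (7.6 in late G1), lies in a mid-G1 loop anchor. The others were 62245294 to 62245606 (10.1 in late G1), 62296639 to 62296886 (8.4) and 63072280 to 63072488, which was called in ana/telophase (9.2), early G1 (8.1) and asynchronous cells (5.7). Beyond the cluster 5 of 5 sites were called in late G1, among them 63660175 to 63660425 (11.1), 63660569 to 63660853 (12.3) and 63727110 to 63727479 (18.5). Single-stage CTCF sites that asynchronous cells also lacked numbered 4. Besides the one at 62634478 and the wide peak over Myc, they were 61271352 to 61271572 in early G1 and 61897018 to 61897177, 75 kb past Myc, in mid G1. Over all chromosomes, 7.55% of the ana/telophase CTCF peaks were in no other list, and for the early, mid and late G1 lists the shares were 1.06%, 3.61% and 1.82%.

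Set against late G1, 8 of the 27 CTCF peaks of the window (29.6%, exact 95% binomial interval 13.8 to 50.2) were found in pro-metaphase, where 33.7% were over all chromosomes. In ana/telophase 17 (63.0%, interval 42.4 to 80.6) were found against 82.9% over all chromosomes. In early G1 the figure was 24 (88.9%) against 91.8%, and in mid G1 26 (96.3%) against 96%. In asynchronous cells 25 of the 27 were found, against 91.1%. The intervals cover counting error only, since neighbouring peaks are not independent. The late-G1 CTCF peaks of the window had a median fold of 12.3, against 18.1 over all chromosomes. Whether this difference in strength bears on the shares was not tested.

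Rad21 was called at 30 sites, none of them in pro-metaphase. Ana/telophase brought the first 11 sites, early G1 1, mid G1 13 and late G1 4, and 1 was called in asynchronous cells only. The lists held 0, 11, 8, 22 and 22 peaks from pro-metaphase to late G1 and 16 in asynchronous cells. Of the 22 late-G1 peaks, 0 were found in pro-metaphase (interval 0 to 15.4; 2.47% over all chromosomes), and 7 (31.8%, interval 13.9 to 54.9) in ana/telophase, where 36.3% were over all chromosomes. In early G1 7 were found again (31.8%, against 45.1%) and in mid G1 18 (81.8%, against 77.6%). Asynchronous cells held 13 of the 22 (59.1%, against 68.4%). Mid G1 was the stage that added the most Rad21 sites.

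The strongest Rad21 sites lay in the distal cluster and next to Myc. At 63432907 to 63433570 the fold was 5.8, 15.1, 26.6 and 31.6 in the 4 stages from ana/telophase to late G1, and 7.9 in asynchronous cells. At 63603136 to 63603554 the values were 15.0, 17.6, 26.9 and 28.4, and 17.2 in asynchronous cells. The site at 63572100 to 63572567 had 8.0, 9.0, 20.6 and 22.6, and the site at 63483889 to 63484528 had 10.8, 16.2, 23.2 and 15.1. The fifth cluster site, 63553259 to 63553580, had 5.4, 10.8, 12.3 and 14.7. These 5 and the site upstream of Myc were the 6 sites called at every stage from ana/telophase on. In late G1 the far upstream site at 60989098 to 60989436 had a fold of 18.6, and it was not called in early G1. Other upstream Rad21 sites lay at CTCF sites, 60928027 to 60928308 (5.0 in late G1), 60933942 to 60934319 (9.8 in mid G1), 61232392 to 61232600 (4.0 in late G1) and 61247251 to 61247471 (4.6, late G1 only). Downstream, 62634360 to 62634618 had 6.0 and 6.4 in the mid and late G1 lists, and 62644754 to 62644946 had 7.3 in mid G1 and 5.2 in asynchronous cells. In the cluster 63479727 to 63480052 was called in mid G1 (6.9) and asynchronous cells (4.3). Beyond the cluster, 63727170 to 63727358 was called in late G1 (3.5) and 63727587 to 63727847 in mid and late G1 (5.8 and 8.5).

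In most lists that held Rad21 peaks, some Rad21 sites lay away from CTCF. In early G1 the only such peak was the wide one over the end of Myc, whose reads the lists cannot place at the locus. In late G1 16 of 22 Rad21 peaks overlapped a CTCF peak of the stage (72.7%, interval 49.8 to 89.3), where 95% did over all chromosomes. In mid G1 14 of 22 did (63.6%, against 96.2%), and in ana/telophase 8 of 11 did (72.7%, against 87.3%). Early G1 had 7 of 8 (87.5%, against 98.5%) and asynchronous cells 11 of 16 (68.8%, against 96.3%). The Rad21 sites without CTCF included 61990290 to 61990859, 168 kb past Myc, with folds of 6.2 in mid G1, 7.6 in late G1 and 6.2 in asynchronous cells. They also included 62052598 to 62052994, 231 kb past Myc, with 4.5, 4.6 and 3.3 in the same lists, and 62054710 to 62055373, with 4.4 in mid G1 and 4.5 in late G1. In ana/telophase a Rad21 peak was called nearby, at 62054196 to 62054344 (4.6), and in mid G1 another at 62041473 to 62041637 (3.3). Farther on, 62838088 to 62838282 was called in late G1 only (5.6). The places at 61990290 and around 62052598 are loop anchors below.

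Of the 16 late-G1 sites with both proteins, 12 had CTCF in an earlier list than Rad21 (75%, interval 47.6 to 92.7), against 79.2% of such sites over all chromosomes. Both appeared in the same stage at 2 (12.5%, against 18.8%). Rad21 was listed first at 2 (12.5%, against 2.05%), namely 62634418 to 62634618 (Rad21 in mid G1, CTCF in late G1) and 63432907 to 63433570 (Rad21 in ana/telophase, CTCF in early G1). The smallest listed −log10 p was 8.17 for CTCF and 4.05 for Rad21, so the lists reach down to unlike limits. Whether this affected the order was not tested. Read from the CTCF side, 0 of 8 pro-metaphase CTCF peaks carried Rad21 (3.15% over all chromosomes) and 7 of 20 ana/telophase peaks did (21%). The early, mid and late G1 lists gave 7 of 28 (25.3%), 14 of 29 (42%) and 16 of 27 (53.7%). In asynchronous cells 11 of 29 did (39.4%).

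Domains, stretches of chromatin in raised contact with themselves, were of middling length at Myc in mitosis. In pro-metaphase 46.6% of all listed domains were as long as the Myc domain or longer, and in ana/telophase 51.8% were. In pro-metaphase Myc lay in a domain of 250 kb, 61810001 to 62060000, and the distal cluster lay in a separate domain of 180 kb, 63430001 to 63610000. In ana/telophase the Myc domain was 290 kb, 61800001 to 62090000, and the cluster lay in no listed domain. Neither list held a domain that joined Myc to the cluster.

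In early G1, 3 nested domains that joined Myc to the cluster were first listed, 61760001 to 63660000 (1900 kb), 61770001 to 63630000 (1860 kb) and 61790001 to 63610000 (1820 kb). The shortest ends before the last CTCF site of the cluster and the others past it, and 157 of 9210 domains in that list were as long as the shortest. Mid G1 listed 61820001 to 63640000 (1820 kb), whose start falls inside Myc, and 61840001 to 63640000 (1800 kb), which starts past it. The mid-G1 domain that held the whole gene was upstream, 60920001 to 61840000 (920 kb). In late G1 Myc was held again by 61790001 to 63610000 (1820 kb), 61800001 to 63640000 (1840 kb) and 61790001 to 63660000 (1870 kb), and 291 of 10899 (2.67%) were as long as the first. A nested domain of 240 to 250 kb that started inside Myc was listed from early G1 on, 61820001 to 62060000 at first and in mid G1 and to 62070000 in late G1, close in extent to the pro-metaphase domain. Upstream, a domain of 870 kb from 60930001 to 61800000 was first listed in early G1, with counterparts from 60910001 to 61800000 (890 kb) in mid G1 and from 60920001 to 61800000 (880 kb) in late G1. Late G1 also listed a domain of 2090 kb, 59700001 to 61790000, which ends just upstream of Myc. The other domains of mid G1 that lay in no larger domain were 60530001 to 60910000 and, across the downstream edge of the window, 63580001 to 64500000. Across the same edge, ana/telophase listed 63700001 to 63960000, early G1 63610001 to 63960000 and 63630001 to 64530000, and late G1 63610001 to 64500000 and 63660001 to 66320000. Pro-metaphase listed 59970001 to 60330000 across the upstream edge.

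**Figure D2:**
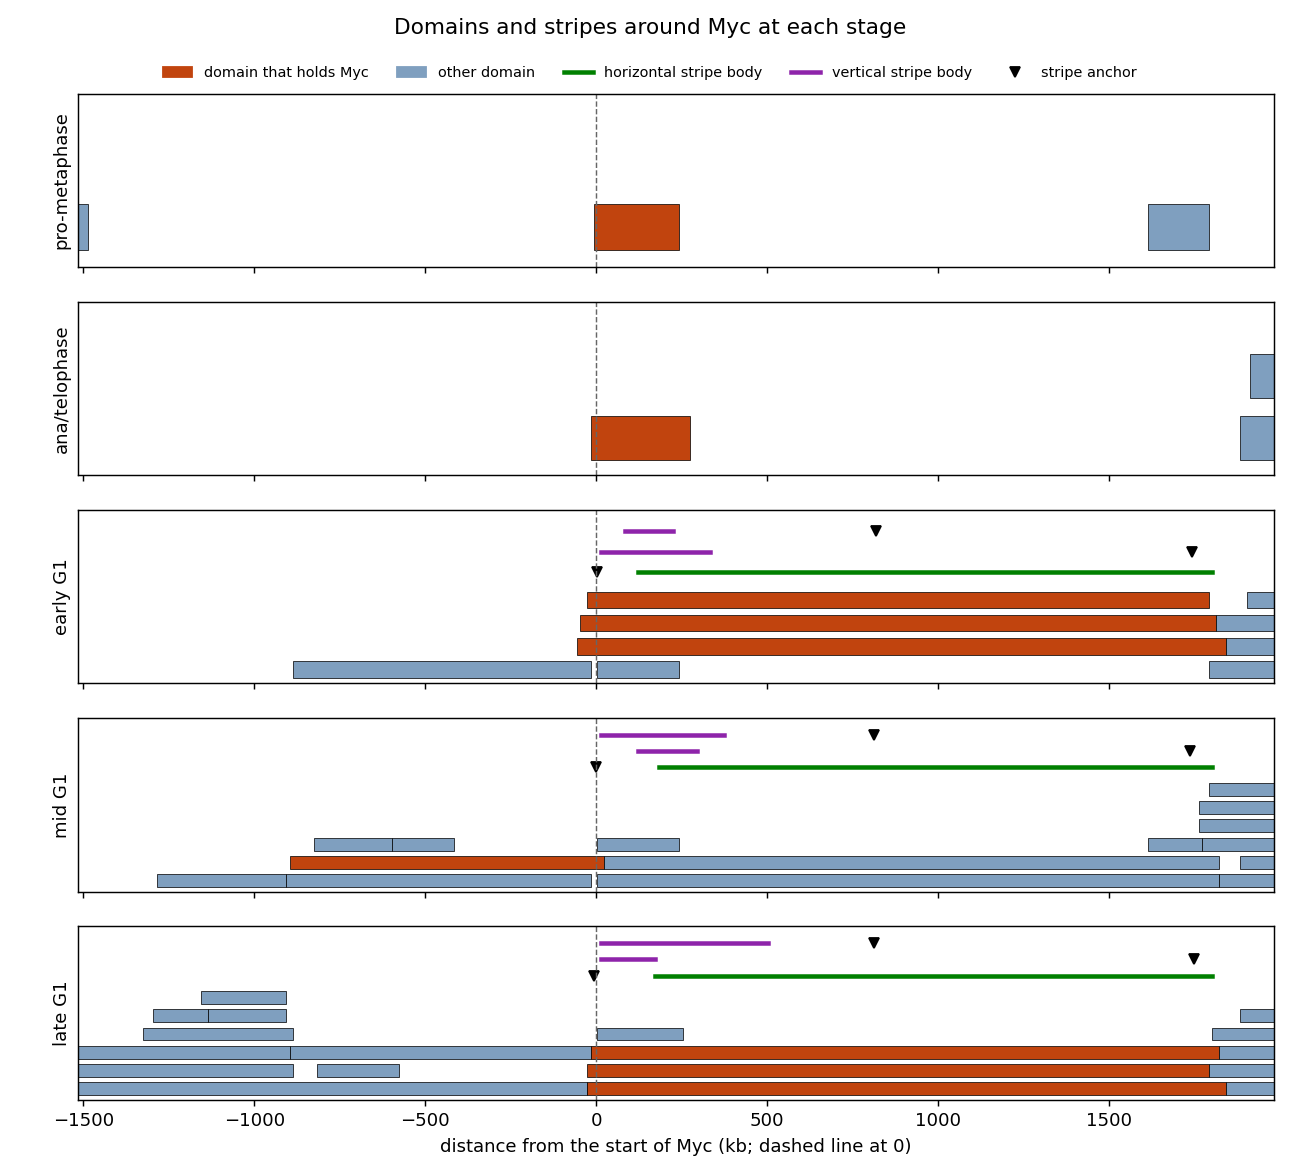
Domains (bars) and stripes (lines with a triangle at the anchor) by stage, plotted by distance from the start of Myc in kb; red bars hold the whole gene and vertical position only separates overlapping features. Red bars are 250 and 290 kb long in the first 2 panels and span nearly all or all of the cluster in early and late G1, while in mid G1 the long domains start within or past the gene.

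The domain map shows that several boundaries recurred, 1 of them at every stage. A boundary between 61790000 and 61820000, on either side of the start of Myc, was listed at all 5 stages, with a CTCF peak of the same stage within 20 kb each time and with Rad21 from ana/telophase on. A boundary at 62060000 was listed in 3 stages (pro-metaphase, early and mid G1), at 62070000 in late G1 and at 62090000 in ana/telophase, the last within 20 kb of the late-G1 position only. None of these had a CTCF peak of its stage within 20 kb, and Rad21 of the stage lay within 20 kb in mid and late G1. The boundary at 63610000, at the far end of the cluster, was listed in pro-metaphase and from early G1 on but had no counterpart in ana/telophase. Of the 18 late-G1 boundaries of the window, 6 (33.3%, interval 13.3 to 59.0) were found in pro-metaphase within 20 kb, against 18.8% over all chromosomes. In ana/telophase 5 were found (27.8%, against 44.2%), in early G1 12 (66.7%, against 68.6%) and in mid G1 15 (83.3%, against 74.6%). Neighbouring late-G1 boundaries could share 1 match, so these shares do not count separate earlier boundaries. The late-G1 boundaries 61790000, 61800000 and 61820000 all matched 61810000 in pro-metaphase and 61800000 in ana/telophase. Those at 63610000 and 63620000 both matched 63610000 in pro-metaphase.

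Loops, pairs of places in focal contact, were absent from the pro-metaphase list of the window, and the 4 later lists held 3, 9, 10 and 9. They fell into 17 distinct loops, and 8 of these had Myc at the upstream anchor. Of the 17, ana/telophase held the first 3, early G1 brought 6 more, mid G1 5 and late G1 3. Called loops are described by the authors' observed contact signal over the expected value at that distance.

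The first loops at Myc reached a short way into the downstream side. The loop from 61810001-61830000 to 61980001-62000000 spanned 160 kb and was called at 4 stages, with an observed-to-expected ratio of 2.93, 4.05, 5.37 and 4.77 from ana/telophase to late G1. The observed signal was 13.7, 28.9, 41.6 and 37.9, and the expected value lay between 4.65 and 7.94. The loop to 62040001-62060000 spanned 240 kb in ana/telophase and early G1 and 230 kb later, with ratios of 5.37, 6.73, 5.04 and 5.20. These 2 were the loops called at 4 stages. Their downstream anchors held no CTCF peak at any of these stages, while Rad21 was called at the first in mid and late G1 and at the second in ana/telophase, mid G1 and late G1.

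The third loop of ana/telophase lay within the distal cluster, between 63470001-63490000 and 63550001-63580000 (90 kb, ratio 2.74), with CTCF and Rad21 at both anchors. It was called again in early G1 (80 kb, 4.51) and late G1 (80 kb, 4.90) but not in mid G1. Another loop of the cluster, from 63420001-63450000 to 63550001-63570000 in early G1, had ratios of 2.85, 2.88 and 2.69 in early, mid and late G1. In late G1 a loop of 40 kb joined 63430001-63450000 to 63470001-63490000 (1.95). The cluster was thus looped within itself at a stage when no loop joined it to Myc.

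Contact between Myc and the cluster was first called as a loop in early G1. The loop from 61810001-61830000 to 63550001-63580000 spanned 1750 kb, with a ratio of 4.67 in early G1 (observed 17.8) and 6.19 in mid G1 (observed 25.4). In mid G1, 2 more loops joined Myc to the cluster. One reached 63420001-63450000 (1620 kb, 6.75) and one reached 63470001-63490000 (1660 kb, 8.11). All 3 had CTCF and Rad21 at both anchors. The place at 62040001-62060000, which holds Rad21 without CTCF, was also joined to the cluster in mid G1, by a loop of 1430 kb to 63470001-63500000 (5.65) and one of 1520 kb to 63560001-63580000 (4.06).

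In late G1 none of these long loops was called. Of the 5 mid-G1 loops of at least 1000 kb in the window, 0 were found in late G1 (interval 0 to 52.2), where 58 of 78 such loops (74.4%) were found over all chromosomes, a count that includes the 5. The 1 early-G1 loop of this length was not found either, against 73.3%. The late-G1 list held 103 loops of this length over all chromosomes and 0 in the window. Shorter loops at Myc were called in late G1: the loop of 820 kb to 62630001-62660000, with both proteins at both anchors, had ratios of 5.64 (mid G1) and 6.49 (late G1), and a loop of 340 kb to 62150001-62180000 was called in late G1 only (3.62). Counting all loops at the Myc anchor gives 2 in ana/telophase and 4 in early G1. Over all chromosomes 26.5% and 11.1% of loop ends overlapped as many ends or more, themselves included. Both ends of every loop entered and shared anchors were not merged, so these are not shares of distinct anchors. The same count gives 7 in mid G1, where 212 of 19428 loop ends (1.09%) overlapped as many or more, and 4 in late G1 (19.7%). The loop ends at Myc are among those 212.

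The remaining loops were short and lay between Myc and 62060000. The loop of 110 kb from 61820001-61840000 to 61920001-61940000 had ratios of 2.98 in early G1 and 2.95 in mid G1. Early G1 also listed 60 kb between 61850001-61880000 and 61910001-61950000 (1.91) and 120 kb between 61920001-61940000 and 62030001-62060000 (2.13). The loop of 130 kb from 61850001-61870000 to 61980001-62000000 had 2.41 in early G1 and 2.72 in late G1, and one of 190 kb from 61860001-61880000 to 62040001-62060000 was called in late G1 (2.80). None of these 5 had CTCF at either anchor at the stages in which it was called.

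**Figure D3:**
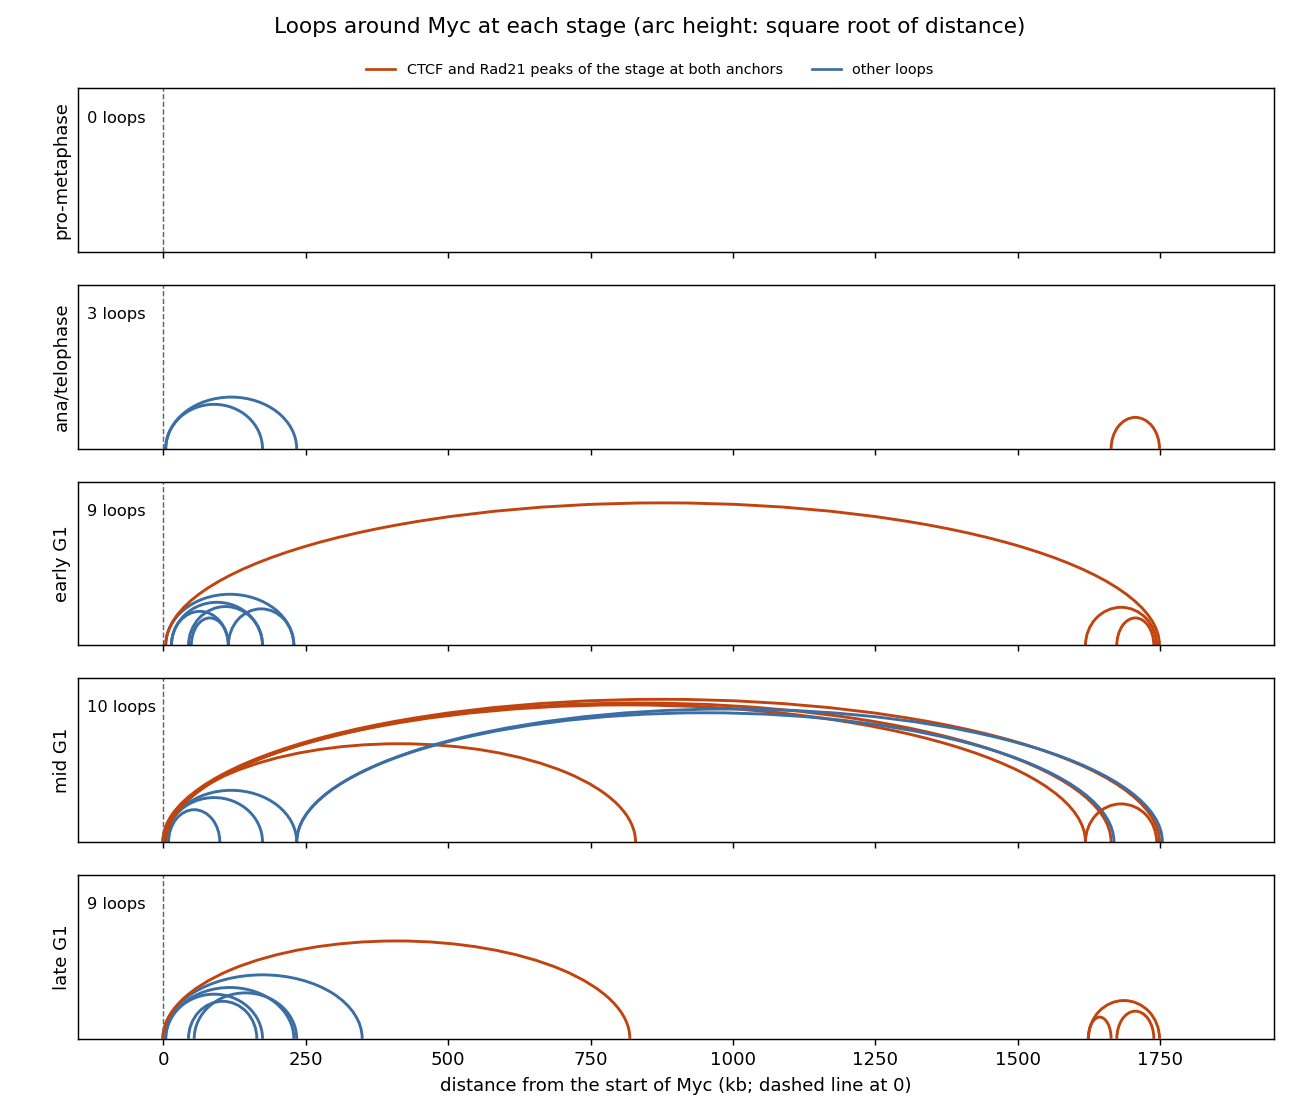
Loops of the window by stage, each drawn as an arc between the centres of its anchors at their distance from the start of Myc in kb, with arc height set by the square root of the distance; red arcs have CTCF and Rad21 peaks of the stage at both anchors. Arcs from Myc to the cluster number 1 in early G1 and 3 in mid G1, and late G1 has none.

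Counted by stage, CTCF and Rad21 lay at both anchors of 1 of 3 loops in ana/telophase (21.9% over all chromosomes). The early, mid and late G1 lists had 3 of 9 (32.8%), 5 of 10 (49.6%) and 4 of 9 (51.3%). CTCF lay at 1 anchor only in 2 of 3 loops in ana/telophase (31.3%) and in 1 of 9 (26.2%), 4 of 10 (23.9%) and 3 of 9 (26.7%) in the 3 later lists. The late-G1 loops of the window were found in ana/telophase in 3 of 9 cases (33.3%, interval 7.49 to 70.1), against 5.39% over all chromosomes. In early G1 5 of 9 were found (55.6%, against 49.1%) and in mid G1 4 of 9 (44.4%, interval 13.7 to 78.8, against 64.8%). With a matching distance of 40 kb in place of 20 kb these shares were 55.6% in ana/telophase and 77.8% in mid G1. In the loop plot several short loops end close to each other. None of the 9 was found in pro-metaphase (0.564%). Read forward to late G1, all 3 loops of ana/telophase were found (65.1% over all chromosomes), 5 of the 9 from early G1 (77.1%) and 4 of the 10 from mid G1 (74.5%).

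**Figure D4:**
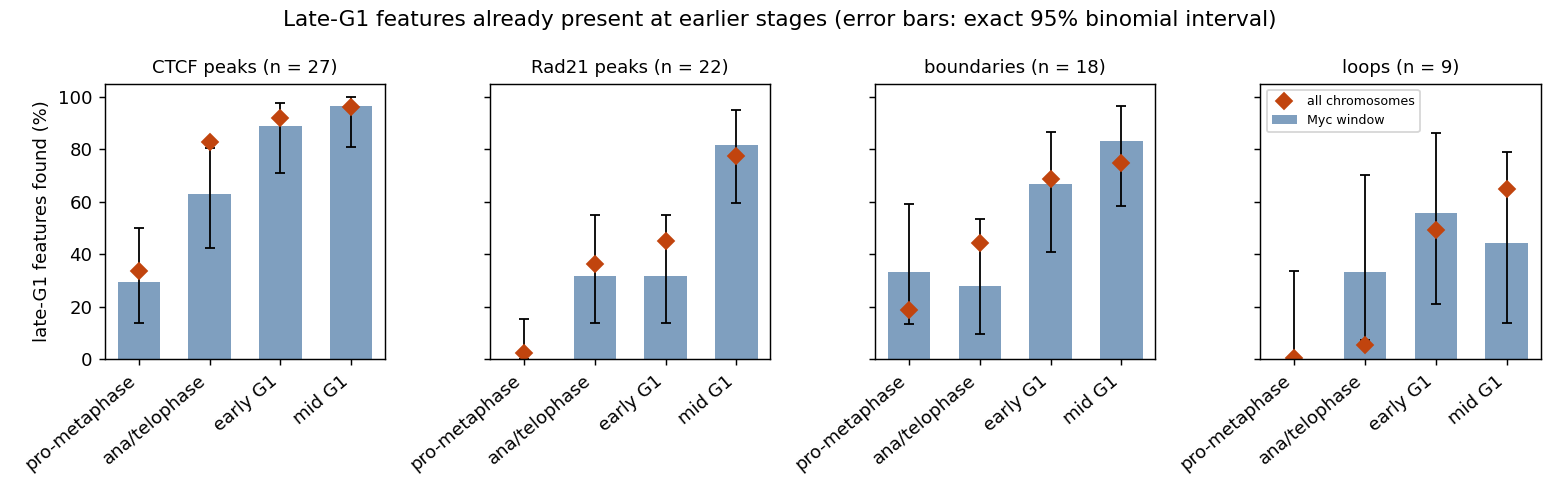
Share of late-G1 features of the window found at each earlier stage, in percent (bars, with exact 95% binomial intervals), beside the share over all chromosomes (diamonds), for CTCF peaks, Rad21 peaks, domain boundaries and loops. In ana/telophase CTCF peaks stand at 63.0% against 82.9%, and loops at 33.3% against 5.39%.

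The plot of shares by stage gives no single order of the kinds of feature. In pro-metaphase 33.3% of the late-G1 boundaries and 29.6% of the CTCF peaks of the window were found, and no Rad21 peak or loop. At this stage and the next, several of the late-G1 boundaries shared the same match. In ana/telophase the shares were 63.0% for CTCF peaks, 33.3% for loops, 31.8% for Rad21 peaks and 27.8% for boundaries, against 82.9%, 5.39%, 36.3% and 44.2% over all chromosomes.

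Stripes are lines of raised contact between 1 anchor and a run of positions. At Myc a horizontal stripe, which runs downstream from its anchor, was first listed in early G1 and stayed listed in mid and late G1. Its anchor was first 61810001-61830000, then 61800001-61830000 in mid G1 and finally 61790001-61830000, and the end of the stripe body was 63620000 in all 3, past the distal cluster. The body was 1680, 1620 and 1630 kb long, and the authors' strength, the observed over the expected sum, was 3.15, 3.37 and 3.44. In each of these lists, of 878, 876 and 873 horizontal stripes, 1 other was as long or longer, and the median length was 270, 320 and 310 kb. CTCF and Rad21 peaks of the stage overlapped the anchor each time. The stripe thus covered the positions of the distal cluster in late G1, when no loop between Myc and the cluster was called.

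Vertical stripes, which run upstream from their anchor, started from the cluster and from a place between Myc and the cluster. The cluster stripe was anchored at 63550001-63570000 in early G1 with a body from 61830001 to 62150000 (320 kb, strength 2.74), just past Myc. It was 170 kb in mid G1 (2.50) and 160 kb in late G1 (2.33), where the anchor bin 63560001-63570000 overlapped no CTCF or Rad21 peak. The second was anchored at 62630001-62640000 in early G1 (140 kb, 2.46), with no peak at the anchor. At 62620001-62640000 it was 360 kb in mid G1 (2.33) with Rad21 at the anchor, and 490 kb in late G1 (2.21) with both proteins. In mid and late G1 its body began at 61830001, just past Myc.

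No stripe of the window was listed in pro-metaphase or ana/telophase. The late-G1 horizontal anchor was found in early G1 and mid G1 (1 of 1 each), as were 93.8% and 94.7% of such anchors over all chromosomes. It was not found in ana/telophase (14% over all chromosomes) or pro-metaphase (1.03%). The 2 vertical anchors were both found in early G1 (93.1% over all chromosomes), and 1 of 2 in mid G1 (95.5%). The one not found was that of the cluster stripe. Its mid-G1 anchor, 63550001-63560000, adjoins the late-G1 anchor, 63560001-63570000, without overlapping it. Neither was found in ana/telophase (15%) or pro-metaphase (1.61%).

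At the edges of the window the nearest late-G1 CTCF peaks were 60525374 to 60525561 inside (fold 7.27) and 59928750 to 59929020 outside (21.3) upstream, and 63727539 to 63727865 inside (39.0) and 63947189 to 63947514 outside (14.5) downstream. A loop of 180 kb crossed the downstream edge in mid G1 (ratio 2.81) and late G1 (2.57) and is not among those counted above. By stage, the domains that overlapped the window numbered 3, 3, 9, 15 and 18, and 2, 1, 5, 9 and 10 of these lay wholly inside it.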

How the data were processed

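The window, the feature lists and the comparisons were chosen with earlier results of these data known. Titles gave each sample's assay, target and stage. The submitters' processing notes name MACS2 2.1.0, bedtools 2.27.1, SAMtools 1.7 and Bowtie 0.12.7 (ChIP-seq), HiC-Pro and Bowtie2 (Hi-C) and build mm9. The sources used here do not give the caller of the domain, loop and stripe lists. Peak lists merge and downsample replicates, per the deposited peak names. Each peak has a deposited fold enrichment (ratio), −log10 p, −log10 q and a score that equals 10 times −log10 p. The smallest deposited −log10 p was 8.17 for CTCF and 4.05 for Rad21. The 5 loop lists give the authors' observed and expected contact signal and p-value, and the 10 stripe lists the deposited observed and expected sums with their ratio as strength. Nor do they give the normalization of the contact signal. Domains and anchors are deposited in bins of 10 kb.

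The software was SciPy 1.17.1, pandas 2.3.3 and NumPy 2.4.6 in Python 3.11.15, with Matplotlib 3.10.9 for plots, and the interval functions passed 5 of 5 tests on simulated data, with bedtools 2.31.1 as a comparison. Peaks were shared at an overlap of at least 1 bp, and overlapping peaks of any lists made 1 site. Boundaries were distinct domain starts and ends, matched within 20 kb; loops matched where both ends of their highest pixels lay within 20 kb. Stripes of one direction matched if their anchors overlapped, and an anchor held a protein if a peak of the stage overlapped it. Coordinates are 1-based, and distances are from the rounded position of Myc. Shares have exact (Clopper-Pearson) 95% intervals, and no p-value was computed, since the lists hold no replicates. The depth of each sample is unknown. All loops and stripes are named by position, as are domains that hold Myc, end within 100 kb of it or lie in no larger one, and peaks near Myc, at anchors, in pro-metaphase or among the 5 strongest of late G1; others are given by counts. Features named for being single-stage, away from CTCF or next to a window edge were chosen after their values were seen. Alternatives covered overlap, peak and loop thresholds, match distance, nesting of domains, anchor width and window edges. Sequences and motifs, Capture-C, RNA polymerase II and input were not analysed here. The order of genes is from RefSeq.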

Additional observations from a re-analysis of the deposited data

How the results depend on the processing

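Across 27 values of the window, 101 alternatives were computed and 99 were classed as unchanged. Shares and density ratios had to stay within the interval of the value reported. Peaks per Mb had no interval and had to stay within a set ratio of it. Some alternatives could not move their value and many intervals were wide, so this count does not measure stability. Leaving out the wide ana/telophase peaks, for example, could not alter late-G1 shares, as no late-G1 peak lay there. The 2 exceptions came from keeping only domains that lie in no larger domain, which leaves fewer boundaries: the share of late-G1 boundaries found was then 60% in place of 33.3% in pro-metaphase, and 100% in place of 66.7% in early G1. Other choices moved shares within their wide intervals. A fold of at least 5 gave 46.7% in place of 31.8% for late-G1 Rad21 peaks found in ana/telophase and 40% in early G1, and an overlap of 50% gave 22.7% in both. A 10 kb match gave 16.7% in place of 27.8% for boundaries found in ana/telophase, and asynchronous peaks gave 33.3% in place of 44.4% for late-G1 loops with both proteins at both anchors. A match distance of 40 kb, or a gap of at most 20 kb between anchors, gave 55.6% for late-G1 loops found in ana/telophase, and in mid G1 these gave 77.8% and 55.6% in place of 44.4%. The 0% of long mid-G1 loops found in late G1 was the same under all 5 alternatives. Widening the window left 0 of 5, with no long mid-G1 loop added, and the other alternatives could not have moved it. The late-G1 list held 0 loops of at least 1000 kb in the window. The gap between anchors and the counts without the wide ana/telophase peaks at Myc were added after seeing the data. No paired analysis was possible because the lists give 1 set of features per stage, with no replicates. The motif search that had been planned was not run, as no genome of build mm9 was used here. Unknown depth limits every statement that a feature was not called, and a stage with fewer reads may list fewer features.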
